A study of Jaculus jaculus with 13 samples.

Results

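In the kidney of the Lesser Egyptian Jerboa (Jaculus jaculus), 80 of 24433 annotated genes rose stepwise from control to dehydration and again from dehydration to rehydration. Members were chosen on scaled counts (CPM, the count of a gene scaled to the total of the animal). A member needed a mean count no lower than 20, every dehydrated animal above every control and every rehydrated animal above every dehydrated animal. Its mean CPM was at least 1.25 times higher in dehydration than in control, and at least 1.3 times higher in rehydration than in dehydration. Genes that the study names by symbol were left out. Both steps were therefore fixed by the choice, and their sizes are given as descriptions with no test.

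RNA sequencing counts of whole left kidneys were analysed for 13 wild caught males: 4 controls (CM01, CM03, CM04 and CM06) with free access to water, 4 dehydrated animals (DHM02, DHM03, DHM05 and DHM06) and 5 rehydrated animals (RHM01, RHM02, RHM04, RHM07 and RHM08). The study sequenced more males than these, and the others were not analysed here. According to the sample labels, water was withheld from the dehydrated animals for 11 days, and from the rehydrated animals for 7 days before water was returned for 3 days. The study's methods give other durations for the males, and the rehydrated animals had a shorter restriction than the dehydrated animals, so the 3 groups are not a series in time. All animals were single housed and had dry food throughout. The water that each animal had in the wild was not recorded, and no genotype or strain distinguishes the groups.

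The kidney conserves water by building a concentrated medulla and by reabsorbing water from the collecting duct through water channels under vasopressin. Desert rodents produce very concentrated urine. When water is withheld, tubule cells are exposed to high salt and urea and accumulate osmolytes. When water returns, these loads are reversed and the tissue must adapt again. Many of the known water-conserving genes rise in dehydration and fall after drinking, whereas the genes described here were higher still after water was returned. AQP2, the vasopressin-regulated water channel of the collecting duct, can serve as the contrast: its mean was 219 ± 33.3 CPM in control (SD, n = 4), 638 ± 108 CPM in dehydration (SD, n = 4) and 189 ± 73.5 CPM in rehydration (SD, n = 5). AQP1, the water channel of the proximal tubule, was at 327 CPM or more in each of the animals, so both defining channels of the labelled tissue were present.

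Between 14071802 and 22949762 counts were assigned per animal, and the totals were lower in rehydration (14071802 to 19267059) than in control (19801654 to 22949762). A count of 3 corresponded to 0.131 to 0.213 CPM. CM01 and RHM01 stood apart from their groups in immune genes. The genes summed were 254 printed under the enriched terms, many of them immune, of one gene module of the study. That module was built on these animals and others. The study describes it as driven by CM01 and RHM01, so high sums in them follow from its choice. The sum was 17608 CPM in CM01 against 2090 to 3333 CPM in the other controls. It was 13169 CPM in RHM01 against 2657 to 3516 CPM in the other rehydrated animals. Among the dehydrated animals DHM03 was the highest, at 6333 CPM against 2919 to 3930 CPM in the others. For the members named below, it is stated where the rule was not met without CM01 and RHM01. The study also states that RNA integrity was lower in the rehydration group, and its part in the results below was not tested. In whole kidney RNA, a change in the number of cells of a type and a change in the RNA per cell cannot be told apart.

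Of the 13828 genes whose mean count reached 20, every dehydrated animal was above every control in 1583 genes (11.4%), and every rehydrated animal was above every dehydrated animal in 1201 genes (8.69%). Both orders held together in 284 genes (2.05%). The first ratio was met by 116 of these and the second by 130. Both were met by 83, of which 3 are named by the study and were left out: SRSF2, LUC7L3 and CLK3. SRSF2 and LUC7L3 take part in the splicing of messenger RNA, and CLK3 is a kinase that phosphorylates splicing factors. SRSF2 was at 160 ± 6.16 CPM in control, 210 ± 12.2 CPM in dehydration and 290 ± 25.6 CPM in rehydration (SD, n = 4, 4 and 5).

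The mirrored order, with every animal lower at both steps, held in 498 genes (3.60%). With the genes that the study names left out, 356 of them met the mirrored ratios. Stepwise genes that fell therefore outnumbered the 80 that rose.

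**Figure D1:**
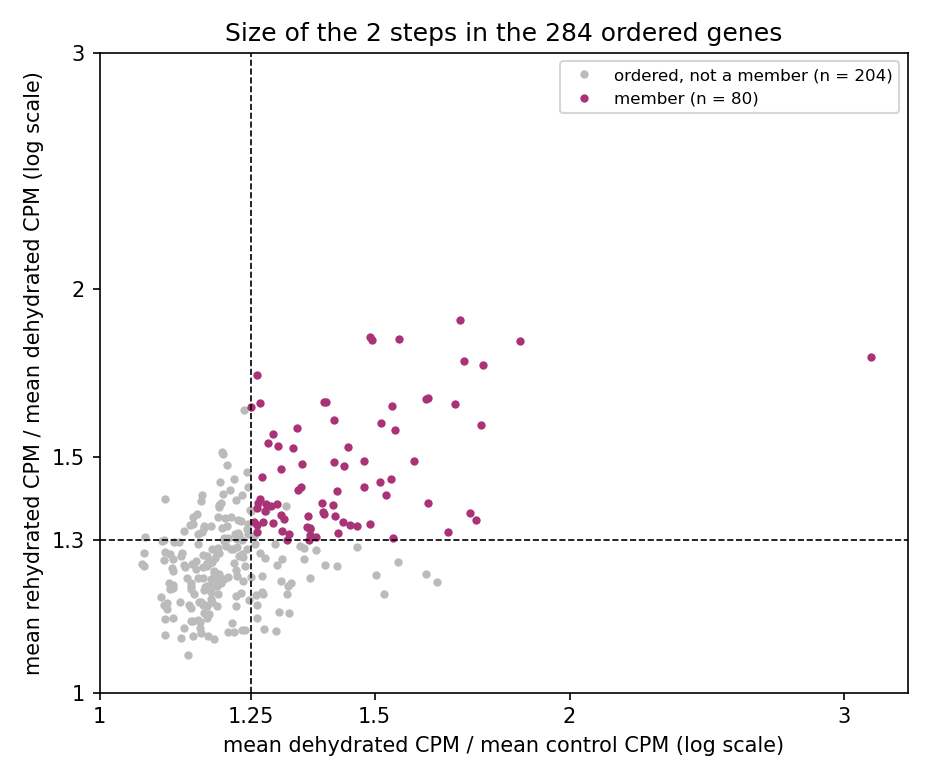
Each point is 1 of the 284 genes in which both orders held, with the ratio of mean dehydrated to mean control CPM on the x axis and of mean rehydrated to mean dehydrated CPM on the y axis, both on log scales. The 80 members lie to the right of 1.25 and above 1.3 (dashed lines), crowded near the lines, with 1 gene far to the right at a first ratio of 3.12, and the 3 grey points inside the lines are the genes the study names.

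Most members took similar steps. The median ratio was 1.39 for dehydration to control (1.251 to 3.12) and 1.41 for rehydration to dehydration (1.3 to 1.9). From control to rehydration the median ratio was 1.99 (1.66 to 5.55). It was 2 or more in 39 members, 2.5 or more in 13 and 3 or more in 5. The first step was the larger in 35 members and the second in 45, and 13 members reached 1.5 at both steps.

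Many members sat close to the thresholds. Among the ordered genes, 47 failed only the first ratio and 33 failed only the second. The member just inside the first ratio, at JH725707.1:130507-134968 (5 exons), had 1.2506 and the gene just outside it 1.2496. The member just inside the second ratio, at JH725581.1:4086360-4106143 (13 exons), had 1.3003 and the gene just outside 1.2908. The member at the first threshold did not meet the rule under TMM factors, DESeq2 size factors or group medians, or without CM03, CM04, DHM02 or DHM06 alone. The member at the second did not meet it without CM01 and RHM01, or without DHM03, DHM06, RHM01, RHM07 or RHM08 alone. The lowest mean count of a member was 32.154, and 2 genes that met every other condition had a mean count under 20, the nearest at 17.

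The gaps between the groups were small beside the ratios. The lowest dehydrated animal was 1.13 times the highest control in the median member, and between 1.012 and 1.74 times over all members. The lowest rehydrated animal was 1.11 times the highest dehydrated animal in the median member, with a range of 1.009 to 1.44. The first gap was 1.1 or more in 47 members and the second in 45. Within groups, the coefficient of variation of the median member was 9.32% in control, 9.44% in dehydration and 12.3% in rehydration.

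Together the members held little of the RNA. Their summed level was 2892 ± 27.7 CPM in control (SD, n = 4), 4016 ± 81.4 CPM in dehydration (SD, n = 4) and 5679 ± 384 CPM in rehydration (SD, n = 5). That was 0.287% to 0.293% of the counts of a control animal, 0.391% to 0.410% of a dehydrated animal and 0.504% to 0.600% of a rehydrated animal. RHM02 had the lowest sum of the rehydrated animals, at 5036 CPM, and the other 4 lay between 5646 and 5996 CPM.

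**Figure D2:**
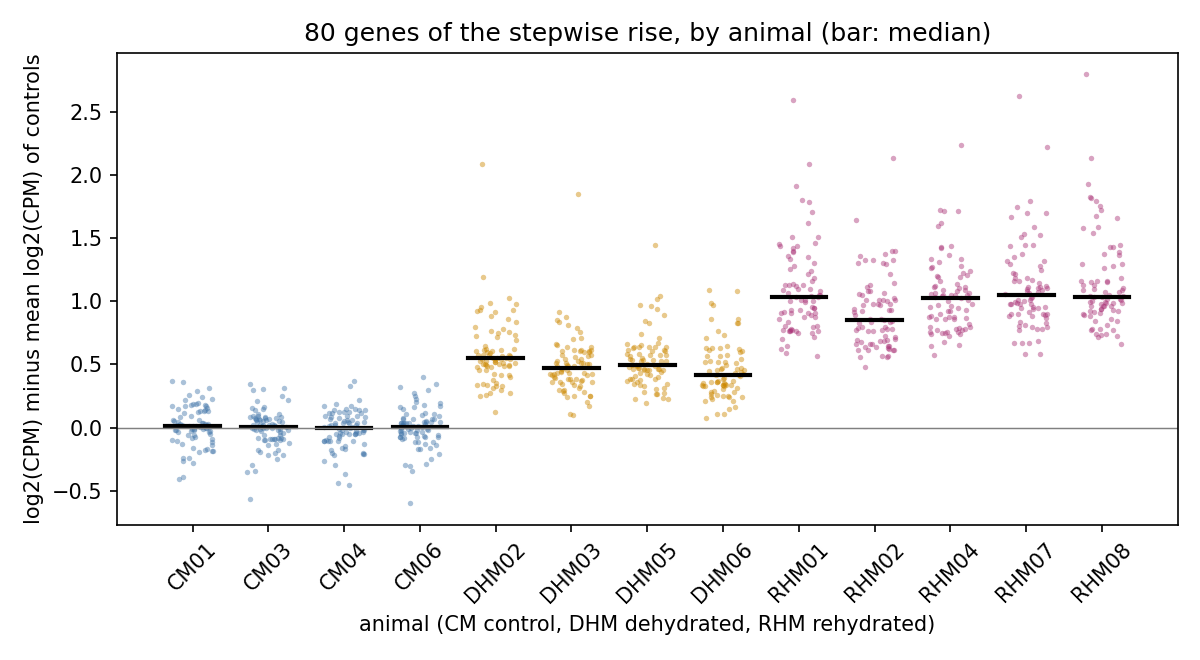
Each point is 1 of the 80 members in 1 animal, as log2 CPM minus the mean log2 CPM of the 4 controls, and the black bars are the medians. The medians lie between -0.01 and 0.01 in the controls, between 0.42 and 0.55 in the dehydrated animals and between 0.86 and 1.04 in the rehydrated animals, where RHM02 is lowest.

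The rule fixed the order of the groups but not the order of the animals within a group. Among the dehydrated animals, DHM02 was the highest in 35 members (43.8%) and DHM06 the lowest in 37 (46.2%). Over all 1583 genes in which the dehydrated animals were above the controls, DHM02 was the highest in 28.6% and DHM06 the lowest in 30.4%. Among the rehydrated animals, RHM08 was the highest in 30 members (37.5%) and RHM02 the lowest in 37 (46.2%). Over all 1201 genes in which the rehydrated animals were above the dehydrated animals, these shares were 17.2% and 37%. RHM08 was the highest in 12.7% of all 13828 genes whose mean count reached 20.

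RHM01, the rehydrated animal with high immune genes, was the highest in 21 members (26.2%). It was the highest in 46.9% of those 1201 genes, and in 21.9% of all 13828 genes whose mean count reached 20. In these 21 members its level was 1.15 to 1.76 times the mean of the other rehydrated animals. Over all members the median of this ratio was 1, and CM01 was at 1.01 times the other controls. The members highest in RHM01 had a median first ratio of 1.42 and a median second ratio of 1.42. The 30 members highest in RHM08 had 1.38 and 1.48. RHM01 was also the lowest rehydrated animal in 19 members. Without CM01 and RHM01, 66 of the 80 members met the rule, and so did 58 further genes, giving 124 in all.

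**Figure D3:**
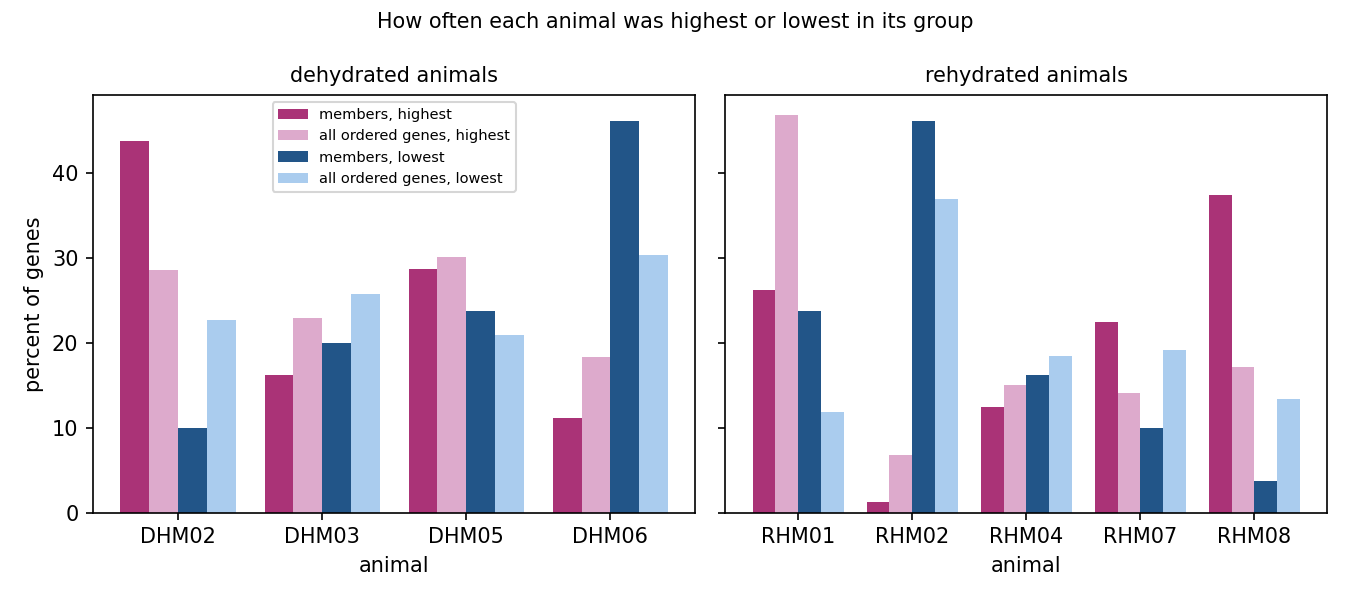
Bars give the percent of genes in which each dehydrated animal (left) or rehydrated animal (right) was the highest or lowest of its group, for the 80 members (dark) and for all genes ordered at that step (light; 1583 genes left, 1201 right). RHM08 was highest in 37.5% of the members and RHM02 lowest in 46.2%, while RHM01 was highest in 46.9% of all ordered genes and in 26.2% of the members.

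The deposited table names genes by Ensembl identifier and pairs none with a symbol, and 0 of its identifiers were found in the RefSeq gene table used here. The members at the top of each ranking below are therefore given by identifier and the others by their position on the scaffolds of JacJac1.0. Planned lists of pathway and cell type marker genes could not be matched for the same reason. The deposited files give no roles for the members.

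The gene with the largest rise was ENSJJAG00000016344 (JH725537.1:151363-152557, plus strand, 4 exons, 636 exonic bases). Its level was 0.635, 0.436, 0.433 and 0.606 CPM in CM01, CM03, CM04 and CM06. It was 2.20, 1.87, 1.41 and 1.1 CPM in DHM02, DHM03, DHM05 and DHM06, and 3.13, 2.28, 2.44, 3.20 and 3.60 CPM in RHM01, RHM02, RHM04, RHM07 and RHM08. The dehydrated animals were all well clear of the controls, whereas RHM02 was only just above DHM02. The ratios were 3.12 and 1.78, and 5.55 overall. The fitted log2 fold changes were 1.58 (SE 0.28) for dehydration, 0.87 (SE 0.25) for the second step and 2.45 (SE 0.27) overall. It is also the member with the lowest level, and its counts went down to 9 in an animal.

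The gene next in size of rise lay at JH725529.1:8510649-8512456 (minus strand, 5 exons, 453 exonic bases). It was at 1.1 ± 0.198 CPM in control, 2.04 ± 0.384 CPM in dehydration and 3.73 ± 1.08 CPM in rehydration (SD, n = 4, 4 and 5). Both ratios were similar, at 1.86 and 1.83. RHM07 and RHM08, at 5.05 and 4.74 CPM, were high among the rehydrated animals, which otherwise lay between 2.76 and 3.27 CPM.

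Of the 10 members with the highest overall ratio, a gene with 14 exons at JH725455.1:634587-639280 (minus strand, 2154 exonic bases) showed equal steps of 1.76. It was at 6.30, 7.15, 6.93 and 9.85 CPM in the controls in the order given above. The dehydrated animals had 14, 12.2, 11.1 and 15.8 CPM and the rehydrated animals 20.4, 18.7, 24.4, 24.9 and 28.3 CPM. CM06 was the high control and came within reach of DHM05, and the rehydrated animals were clear of both groups.

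On the same scaffold, a gene at JH725455.1:1519814-1522759 (minus strand, 8 exons, 1596 exonic bases) was both among the 10 highest ratios and among the 10 highest levels. It was at 50.6, 54.7, 53.4 and 47.7 CPM in the controls, at 105, 97.4, 80.2 and 79.9 CPM in the dehydrated animals and at 115, 127, 139, 155 and 181 CPM in the rehydrated animals. The first ratio was 1.75 and the second 1.58. Here the controls were tightly grouped, and RHM01 was the lowest rehydrated animal and RHM08 the highest.

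Genes at JH725607.1:2680628-2693607 (9 exons) and JH725570.1:5312329-5329027 (24 exons) rose to 3.02 and 2.86 times control. The first was at 5.42 ± 0.757, 9.28 ± 1.49 and 16.4 ± 2.22 CPM in control, dehydration and rehydration (SD, n = 4, 4 and 5). The other was at 8.27 ± 1.3, 12.9 ± 1.67 and 23.6 ± 3.54 CPM, with a wide second gap, as the lowest rehydrated animal was 1.41 times the highest dehydrated animal.

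A gene of 2 exons at JH725612.1:2233064-2234316 (plus strand, 966 exonic bases) showed how 1 animal can enter a mean. It was at 22.4 CPM in RHM01 and at 11.8 to 13.7 CPM in the other rehydrated animals, against 7.25 to 8.96 CPM in dehydration and 4.85 to 6.54 CPM in control. The second ratio was 1.84 with RHM01, and the gene met the rule without CM01 and RHM01 as well.

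Of the other genes among the 10 highest ratios, 1 of 26 exons at JH725506.1:620240-631632 rose from 4.84 ± 0.600 to 8.17 ± 0.867 and 13.4 ± 2.09 CPM (SD, n = 4, 4 and 5). It shares 3849 of its 4329 exonic bases with another annotated gene on the same strand, so reads there cannot be told apart by position and its level is uncertain. The overlapping gene was at 7.16 to 9.09 CPM in control, 8.63 to 10.9 CPM in dehydration and 16.5 to 20.3 CPM in rehydration, and is not a member because its control and dehydrated animals overlap.

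Very short annotated genes were also present. At JH725444.1:797483-797639 (minus strand), a model of 156 exonic bases, split by a gap of 1 base, was at 6.04 ± 0.550 CPM in control, 10.3 ± 1.3 CPM in dehydration and 19.5 ± 2.09 CPM in rehydration (SD, n = 4, 4 and 5). Its second ratio, 1.9, was the highest of the members, and its groups were the most clearly separated at the second step, with a gap of 1.44. The shortest member was a single exon of 79 bases at JH725443.1:3194425-3194503 (minus strand). It was at 14, 13.6, 15.9 and 18.6 CPM in the controls, 29.3, 22.9, 21.2 and 19.4 CPM in the dehydrated animals and 32.5, 37.9, 39.6, 53.3 and 49.2 CPM in the rehydrated animals. CM06 and DHM06 nearly met, at 18.6 and 19.4 CPM.

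The single exon of 79 bases lies within an intron of a longer gene on the same strand with 8196 exonic bases. That gene was at 607 to 745 CPM in control, 798 to 1091 CPM in dehydration and 867 to 1407 CPM in rehydration. Its dehydrated animals were above the controls, but its rehydrated and dehydrated animals overlapped, so it is not a member. Reads from its unspliced RNA would be counted for the short gene, and their part in the result was not tested.

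**Figure D4:**
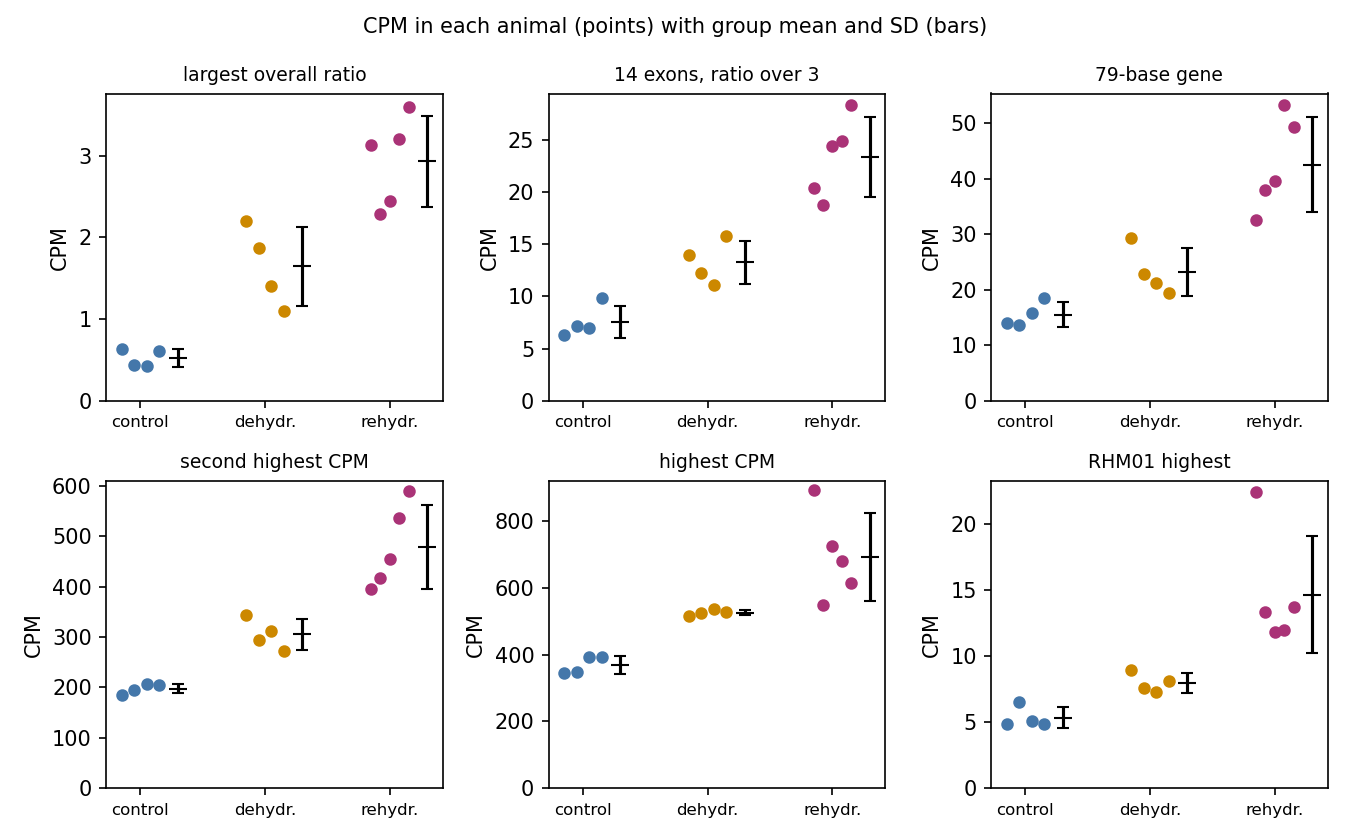
CPM of 6 members in each control, dehydrated and rehydrated animal (points), with the mean and SD of each group (bars; n = 4, 4 and 5); every y axis starts at 0. The panels show the gene with the largest overall ratio, ENSJJAG00000016344, the gene with 14 exons, the 79-base gene, the genes second and first in CPM, the last being ENSJJAG00000023385, and the gene of 2 exons in which RHM01, at 22.4 CPM, lay above the other rehydrated animals at 11.8 to 13.7 CPM.

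The member with the highest CPM was ENSJJAG00000023385 (JH725485.1:1831015-1844321, minus strand, 3 exons, 812 exonic bases). It was at 345, 349, 394 and 393 CPM in CM01, CM03, CM04 and CM06, and at 517, 524, 536 and 528 CPM in DHM02, DHM03, DHM05 and DHM06. In RHM01, RHM02, RHM04, RHM07 and RHM08 it was at 895, 548, 727, 681 and 614 CPM. The dehydrated animals were nearly identical, with an SD of 8.09 CPM, while the rehydrated animals were spread widely and RHM02 was barely above DHM05. The ratios were 1.42 and 1.32. The fitted log2 fold changes were 0.46 (SE 0.14), 0.43 (SE 0.13) and, for rehydration compared to control, 0.89 (SE 0.13). This gene did not meet the rule without RHM01, without CM01 and RHM01, with the correction for exonic length described below, or with medians in place of means.

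The gene next in CPM lay at JH725624.1:903772-929284 (minus strand, 10 exons, 1533 exonic bases) and took larger steps, of 1.55 and 1.57. It was at 185, 195, 206 and 204 CPM in the controls, at 343, 294, 312 and 272 CPM in the dehydrated animals and at 395, 417, 455, 537 and 591 CPM in the rehydrated animals. RHM01 was the lowest rehydrated animal here, and the groups were well separated at both steps. This gene met the rule with each animal left out in turn, which can change its ratios but cannot break the order.

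Among the other abundant members, a gene at JH725576.1:4548901-4560036 (6 exons) was at 212 ± 10.7, 291 ± 19.7 and 380 ± 29.5 CPM in control, dehydration and rehydration (SD, n = 4, 4 and 5). A gene at JH725513.1:11684713-11693942 (13 exons) was at 86.6 ± 8.79, 131 ± 21.8 and 188 ± 19.2 CPM. A gene at JH725474.1:2195549-2200348 (3 exons) was at 97.0 ± 8.14, 127 ± 11.3 and 171 ± 13.6 CPM. The overall ratios of these 3 genes were 1.8, 2.17 and 1.77. The first of them did not meet the rule without CM01 and RHM01, nor without DHM02, RHM01, RHM07 or RHM08 alone, and the last did not meet it with DESeq2 size factors.

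The 252 exonic bases of a gene with 5 exons at JH725567.1:3947969-3948754 gave it the highest level per length, 1113 CPM per 1000 exonic bases over all animals, against a median of 24.1 for the members and 16.8 for all genes whose mean count reached 20. Its CPM was 209 ± 9.94 in control, 263 ± 12.4 in dehydration and 352 ± 60.6 in rehydration (SD, n = 4, 4 and 5). RHM01 was the highest animal, at 456 CPM, and the other rehydrated animals lay between 309 and 353 CPM. It did not meet the rule without RHM01, CM04, CM06 or DHM03, and it was the only member lost under all 5 of TMM factors, DESeq2 size factors, the correction for exonic length, group medians and the removal of CM01 and RHM01. Per length, the lowest member was at 2.00.

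The remaining 3 of the 10 most abundant members were near the thresholds or had many exons. They lay at JH725513.1:2425071-2438388 (17 exons), JH725437.1:77285446-77292824 (17 exons) and JH725652.1:602248-642111 (15 exons), with overall ratios of 1.68, 1.74 and 2.01. Each was lost from the members when CPM was scaled by TMM factors or by DESeq2 size factors, and with group medians. The first was also lost without CM01 and RHM01, and without CM01, CM06, DHM05 or RHM04 alone. The next was lost without RHM08, and the last without CM03 or DHM02. The gene on JH725437.1 shares 771 of its 2328 exonic bases with another annotated gene on the same strand. Reads there cannot be told apart by position, so its level is uncertain.

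Over all members, the mean level was between 1.80 and 542 CPM, with a median of 30.5 CPM. It was under 10 CPM in 12 members, between 10 and 100 CPM in 61 and over 100 CPM in 7. All but 2 members had at least 20 counts in every animal.

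In edgeR's quasi-likelihood test, all 80 members passed the filter on the mean count, which was 8. The rule used the same contrasts, so nothing is read from the following counts. After dehydration compared to control, 1 member was called higher at an adjusted p under 0.01, where 0.312% of 15064 genes were called higher. After rehydration compared to dehydration 51 members were called higher, where 2.68% of all genes were, and after rehydration compared to control all 80, where 12.5% of all genes were. The 51 became 18 when only those groups were fitted, 19 to 23 without DHM02, DHM03, DHM05, DHM06 or RHM08, and 30 without RHM07. In the 3 comparisons, 25, 77 and 80 members were called with DESeq2's Wald test. With edgeR at an adjusted p under 0.05, these counts were 30, 77 and 80. The median log2 fold changes of the members were 0.43, 0.53 and 0.99, and those of all genes tested 0.00, 0.00 and 0.03. The first 2 comparisons share the dehydrated animals and the first and last share the controls.

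The member called in each of the 3 comparisons was a single exon of 630 bases at JH725526.1:631215-631844 (plus strand). It was at 24.8, 26.4, 27.3 and 28.1 CPM in the controls, 47.4, 38.4, 37.3 and 41.3 CPM in the dehydrated animals and 56.9, 52.5, 48.2, 57.5 and 52.7 CPM in the rehydrated animals. Its first ratio was 1.54 and its second 1.3, with DHM02 and RHM04 nearly meeting at 47.4 and 48.2 CPM. It did not meet the rule with the correction for exonic length, without CM01 and RHM01, or without DHM03, DHM05, RHM01 or RHM07 alone. In dehydration compared to control, 0 members were called with DESeq2 size factors in edgeR, with a mean count filter of 20, or without any 1 control or dehydrated animal. This gene was chosen for mention after its values were seen.

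Properties that the rule did not use were compared with those of all 13828 genes whose mean count reached 20. The members were compact genes. Their median span on the scaffold, introns included, was 6088 bases, against 18095 bases for all genes, although their median exonic length was similar, 1502 against 1349 bases, and their median number of exons was 9.5 against 8. The span was under 10000 bases in 52 members (65.0%) and in 36.7% of all genes. It was over 50000 bases in 0 members and in 24.5% of all genes. These are descriptions over genes, which are not replicates.

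The difference lay in the introns. In the 77 members with introns, the mean intron of a gene had a median of 553.2 bases (quartiles 282.6 and 1223), against 2399 bases (903.8 and 4893) over all genes. Exons covered 25.4% of the span of the median member and 7.73% of the median gene. The 356 genes that fell stepwise were at the other end, with a median mean intron of 4369 bases and a median span of 56221 bases. The 597 further genes that met the order and ratio of the second step, whatever their first step, resembled the members in span (median 5937 bases) but had fewer exons (median 5) and a shorter exonic length (962.0 bases).

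When all genes with introns were divided into 5 equal bins by their mean intron length, 44 of the 77 members fell in the bin with the shortest introns (up to 660 bases) and 21 in the next. The other 3 bins held 7, 1 and 4. As a share of the genes in the bin, members went from 1.69% to 0.153%, and genes of the stepwise fall from 0.881% to 5.25%. The trend was not particular to the members. Over all genes, the median log2 fold change of rehydration compared to control was 0.22 in the bin with the shortest introns and -0.28 in the bin with the longest, and the same comparison for dehydration gave 0.07 and -0.09.

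**Figure D5:**
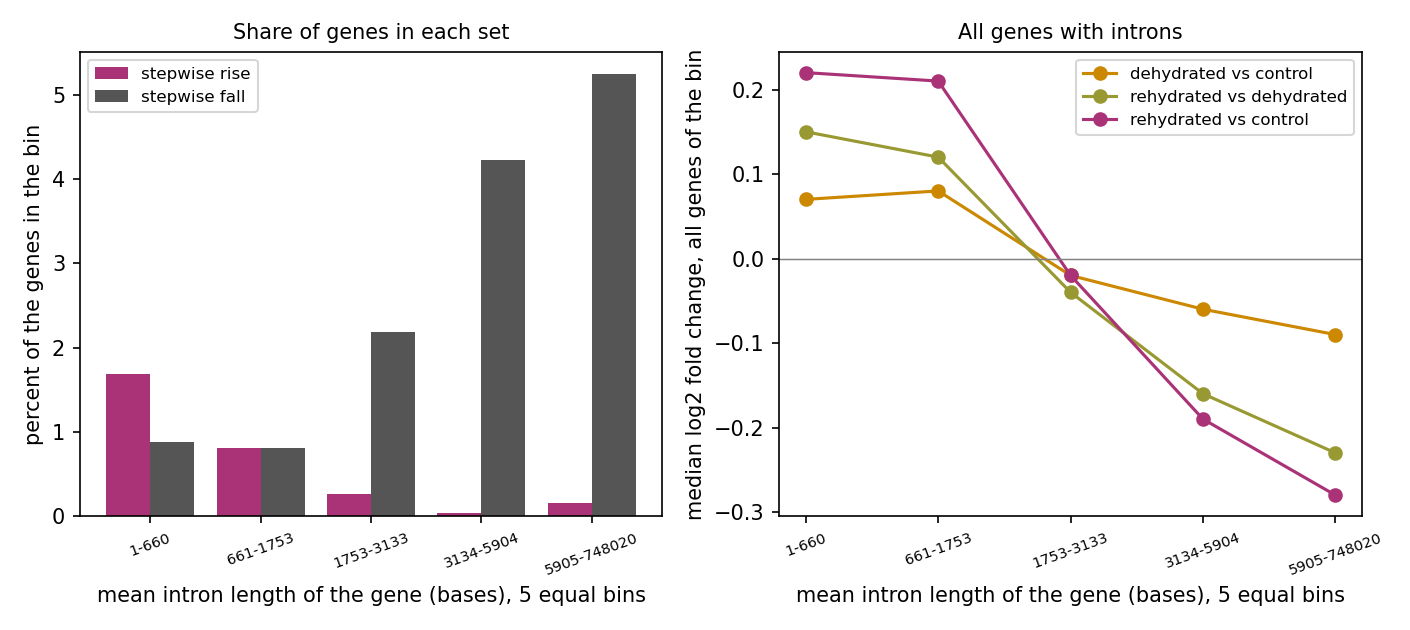
Genes with introns were divided into 5 equal bins by mean intron length (x axis, in bases). The left panel gives the percent of each bin that rose stepwise (members) or fell stepwise, and the right panel the median log2 fold change of all genes in the bin in each comparison, which runs from 0.22 to -0.28 for rehydration compared to control.

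Exonic length showed a different pattern. The members were spread over 5 equal bins of exonic length, with 14, 16, 15, 25 and 10 from the shortest to the longest. Over all genes, the median log2 fold change of rehydration compared to control was 0.18 in the shortest bin and -0.15 in the longest. When the CPM of each animal was corrected for its trend on exonic length, 64 of the 80 members met the rule, among 88 genes in all. Both genes with the largest rises and the 79-base gene were among those lost.

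On the scaffolds, the members were scattered over 51. The most were on JH725452.1, with 7 members (8.75% of the members, against 3.12% of all genes whose mean count reached 20), and on JH725455.1, with 5 (6.25% against 1.26%). Only 1 pair of members were next to each other, at JH725452.1:21006090-21024651 (28 exons) and JH725452.1:21036629-21043436 (13 exons), both on the minus strand and 11977 bases apart. They were at 12.3 ± 0.778 and 15.3 ± 0.914 CPM in control, 17.7 ± 4.11 and 20.8 ± 1.08 CPM in dehydration, and 27.1 ± 2.80 and 27.6 ± 4.29 CPM in rehydration (SD, n = 4, 4 and 5). In the first of the pair DHM05 was high, at 23.5 CPM, close to RHM02 at 24.0 CPM, whereas in the other DHM05 was the lowest dehydrated animal. The other gene of the pair did not meet the rule with group medians, nor without DHM05, RHM07 or RHM08.

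Functions are known here for only 2 members, from lists of Gene Ontology terms that the study printed for a module built on these animals and others and that were shortened in the copy used. The gene with 28 exons of this pair is listed under cilium movement. A gene at JH725438.1:3919908-3924293 (plus strand, 7 exons) is listed under structural molecule activity. It was at 38.9 ± 7.38, 59.9 ± 5.42 and 98.1 ± 22.8 CPM in control, dehydration and rehydration (SD, n = 4, 4 and 5), with RHM01 highest at 134 CPM.

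This last gene overlaps a gene on the opposite strand by 139 exonic bases. The counting used no strand, so reads in the overlap cannot be told apart. The opposite gene was at 92.7 to 161 CPM in control, 141 to 194 CPM in dehydration and 202 to 426 CPM in rehydration. In all, the span of 13 members overlapped another gene, and 7 of them shared exonic bases with it.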

How the data were processed

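Whole kidney RNA of 13 Jerboas was analysed. The deposited values are raw counts of paired fragments per gene, made by the authors with featureCounts 1.6.2 on JacJac1.0 with Ensembl annotation and no strand option. A further 2 per-sample columns carry no sample label and were not used. Groups came from the sample labels, and each animal is 1 replicate. The members and lists were chosen with earlier results of these data known. CPM were counts over column sums. In R 4.3.3, genes whose mean count reached 8 were fitted for all groups together with edgeR 4.0.16 (TMM scaling, quasi-likelihood test, Benjamini-Hochberg adjustment over all tested genes, called under 0.01). DESeq2 1.42.0 was an alternative. In data simulated for rehydration compared to control (15055 genes), edgeR called 47% of genes changed 2-fold and 100% of those changed 4-fold, and 1 of 14855 unchanged genes. Every simulated gene had the same dispersion, 0.07, near the common value fitted here. The members varied less within groups (median coefficients of variation 9.32% to 12.3%), so these shares do not carry over to them. Exons were merged where they overlapped, and introns were the gaps between them. Named were the 10 members highest in overall ratio and in mean CPM, those at the thresholds and adjacent members, with 2 more from outside this rule (1 called in each comparison, 1 with a listed function). Precision comes from the spread between animals, and 3 counts mark the floor of an animal. Python 3.11.15 and matplotlib 3.10.9 were used for tables and figures.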

Additional observations from a re-analysis of the deposited data

Results flagged for a closer look

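Of 81 group profiles examined (25 named members, the summed members and the summed immune genes, each in 3 groups), 7 had 1 animal farther from its group than Dixon's 95% criterion allows. Chance alone marks about 1 profile in 20. Both sums of immune genes were among the 7, at 17608 CPM in CM01 and 13169 CPM in RHM01. Their module was described by the study as driven by these animals, so this was fixed in advance and is not set against chance. The summed level of the members had no such animal in any group. Over all members, each animal was apart from its group in 0 to 3 members, with CM03 and RHM01 highest at 3. That is about the share that chance marks. The single members given below are therefore listed as descriptions, and nothing is read from their number.

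In the members, RHM08 was high at JH725506.1:620240-631632, at 17 CPM against 11.6 to 13 CPM in the other rehydrated animals. At JH725612.1:2233064-2234316, RHM01 was high at 22.4 CPM against 11.8 to 13.7 CPM, and CM03 was high at 6.54 CPM against 4.85 to 5.10 CPM in the other controls. CM03 was also high at JH725437.1:77285446-77292824, at 70.6 CPM against 60.2 to 61.2 CPM. DHM05 was low at JH725452.1:21036629-21043436, at 19.2 CPM against 21.2 to 21.5 CPM in the other dehydrated animals.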

How the results depend on the processing

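The number of members was 80 and stayed between 60 and 88 with other scalings, count filters, medians in place of means and a correction for exonic length. It was 280 with the order alone, 13 with ratios of 1.5 at both steps and 124 without CM01 and RHM01. With each animal left out in turn it was 70 to 118. Leaving animals out cannot break the order of the groups. A member is then lost only through its ratios or mean count, and further genes can enter. Which genes were members changed more: 60 of the 80 met the rule with TMM scaling, 54 with DESeq2 size factors and 54 with medians, 39 met it whichever animal was left out, and 31 under both scalings, medians, the length correction and without CM01 and RHM01. Of the 10 highest ratios, 10 met it whichever animal was left out and 7 under those 5 settings, and of the 10 highest levels 4 and 3. The highest ratios lie farther from the ratio thresholds, so their being kept was favoured by the ranking and is not a test. The median span of the genes meeting the rule was between 4694 and 8830 bases over all these settings. Closing gaps under 30 bases, chosen after seeing the data, moved the median mean intron of the members from 553.2 to 588.8 bases.

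Over all genes, calls depended on the setting. For dehydration compared to control, 72 genes were called by edgeR, 949 by DESeq2's Wald test, 894 at an adjusted p under 0.05, 141 without CM01 and RHM01, 157 when only these groups were fitted, and 1 to 235 with an animal left out. The largest was without RHM01 and the smallest without CM06. For rehydration compared to dehydration the 1233 calls became 2769, 3614 and, with only these groups fitted, 313, and 380 (without DHM02) to 2005 (without RHM02) with an animal left out. For rehydration compared to control the 4331 calls became 6563 at 0.05. Members called were 1, 51 and 80 with edgeR, 25, 77 and 80 with DESeq2, and 0 to 4, 19 to 66 and 80 with an animal left out. The log2 fold changes of all 80 members were above 0 in every fit. The rule had chosen them for rising at both steps, so nothing is read from this.

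Some animal numbers occur in more than 1 group. Deviations of same-numbered animals correlated between -0.0157 and 0.338 over 5 pairs, the highest being CM01 with RHM01. Those of different-numbered animals correlated between -0.239 and 0.285. These values do not settle whether the numbers mark pairs. The study states that animals were assigned to groups at random, and the numbers were not taken as pairs. With the number as a replicate block, edgeR called 0, 0 and 987 genes in the 3 comparisons, with 3110 and 2823 genes at an unadjusted p under 0.05 in the first 2 and 43 members called in the last. DHM05, RHM07 and RHM08 share their number with no other animal and add nothing to this fit, which leaves little to measure the spread.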
